A study of Mus musculus with 2 samples.

Results

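The genes described here are 8 genes that earlier analysis of these libraries had placed higher in somatostatin-producing delta cells than in other islet cells: Rbp4, Gap43, Shisal2b, Ly6h, Mir100hg, Ptprz1, Nhs and Ppp1r17. They are 8 of the 33038 genes listed in either count table, and each of them has a row in both. They were followed across 1483 cells grouped by which of 4 hormones, insulin (Ins1 plus Ins2), Gcg, Sst and Ppy, made up at least 1% of the cell's unique molecular identifiers (UMIs, 1 for each captured transcript). The test concerned cells with Sst alone (Sst-only) against cells with Sst and Ppy and no other hormone (Sst+Ppy). Because the genes were picked for being high in delta cells, their levels in Sst cells against other cells are given as a description, with no test.

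The data are 2 RevGel-seq libraries of control pancreatic islets from male C57BL/6J mice aged 8 weeks. In RevGel-seq, each cell is tethered to a barcoded bead inside a gel that can be dissolved again. The islets were picked by hand after collagenase digestion and dissociated with trypsin, and 10000 cells entered each library. Both libraries are technical replicates of 1 preparation, so their spread contains no difference between animals, and all cells share genotype, age and lack of treatment. Values below are given for library 1 and then library 2.

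Delta cells are the somatostatin cells of the islet. The hormone they release acts on neighbouring beta and alpha cells and lowers the release of insulin and glucagon. Gamma cells make pancreatic polypeptide, the product of Ppy. The 8 genes have unlike products. Rbp4 encodes the secreted carrier of retinol in blood, Gap43 a growth cone phosphoprotein of neurons, Shisal2b a small membrane protein of the Shisa-like family, and Ly6h a membrane-anchored protein of the Ly6 family whose relatives bind nicotinic acetylcholine receptors. Ptprz1 encodes a receptor tyrosine phosphatase that binds pleiotrophin and contactins, Nhs a regulator of actin remodelling, Ppp1r17 an inhibitor of protein phosphatases first studied in Purkinje cells, and Mir100hg a long RNA whose locus carries microRNA hairpins.

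Library 1 held 735 cells with 15931154 UMIs and library 2 held 748 cells with 17440292 UMIs. They shared 0 barcodes, and neither library stood apart in depth, with medians of 17340 and 18922 UMIs per cell. Sst-only cells numbered 35 and 23, with medians of 13123 and 13692 UMIs. Sst+Ppy cells numbered 77 and 71, with medians of 13459 and 15493 UMIs. The median Sst share was 9.07% and 9.12% of UMIs in Sst-only cells and 8.38% and 7.45% in Sst+Ppy cells. The median Ppy share was 0.145% and 0.447% in Sst-only cells and 2.69% and 3.02% in Sst+Ppy cells.

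The delta identity of both groups was checked against listed markers. Hhex, a transcription factor of delta cells, stood at 286 and 431 CPM (a gene’s UMIs per 1000000 UMIs of the summed cells) in Sst-only cells and at 252 and 235 CPM in Sst+Ppy cells, against 0.264 to 5 CPM in Ppy-only, Gcg-only and insulin-only cells. It was also at 78.9 and 35.6 CPM in cells with none of the hormones, so it did not mark delta cells alone. Ghsr, the ghrelin receptor, was at 35.8 and 75.3 CPM in Sst-only cells and at 50.1 and 43.0 CPM in Sst+Ppy cells. The listed markers Lepr and Bche were at 0 in both groups of both libraries. Crhr2 was at 35.8 and 51.2 CPM, Isl1 at 558 and 807 CPM and Pdx1 at 139 and 139 CPM in Sst-only cells. The listed delta markers other than Sst summed to 1055 and 1503 CPM in Sst-only cells and 1152 and 1087 CPM in Sst+Ppy cells. They summed to 279 to 424 CPM in Ppy-only, Gcg-only and insulin-only cells, so the list did not mark delta cells alone. Markers of other cells were also present. Iapp, a listed beta marker, was at 13613 and 13800 CPM in Sst-only cells and at 11360 and 10033 CPM in Sst+Ppy cells. Pyy, a listed gamma marker, was at 11467 and 11697 CPM in Sst-only cells and at 13032.5 and 14904 CPM in Sst+Ppy cells. The summed level of 4 acinar markers was 282 and 139 CPM in Sst-only cells and 232 and 195 CPM in Sst+Ppy cells. Nearly all of it was Cela1, at 280 and 136 CPM in Sst-only cells and 228 and 186 CPM in Sst+Ppy cells. In Ppy-only, Gcg-only and insulin-only cells and cells with none of the hormones the sum was at 4.13 to 17.5 CPM. The acinar marker Cpa1 was at 0 in Sst-only cells of both libraries. The summed level of 6 endothelial markers was 485 and 45.2 CPM in Sst-only cells and 264 and 39.9 CPM in Sst+Ppy cells, with 0 of the 6 at zero. The summed level of 6 leukocyte markers was 143 and 6.02 CPM in Sst-only cells and 68.4 and 6.91 CPM in Sst+Ppy cells. The endothelial and leukocyte lists were therefore higher in library 1, and higher in the Sst-only cells of that library. In library 2 the endothelial sum was nearly level between the groups. The part of these markers in the estimates below was not tested.

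**Figure D1:**
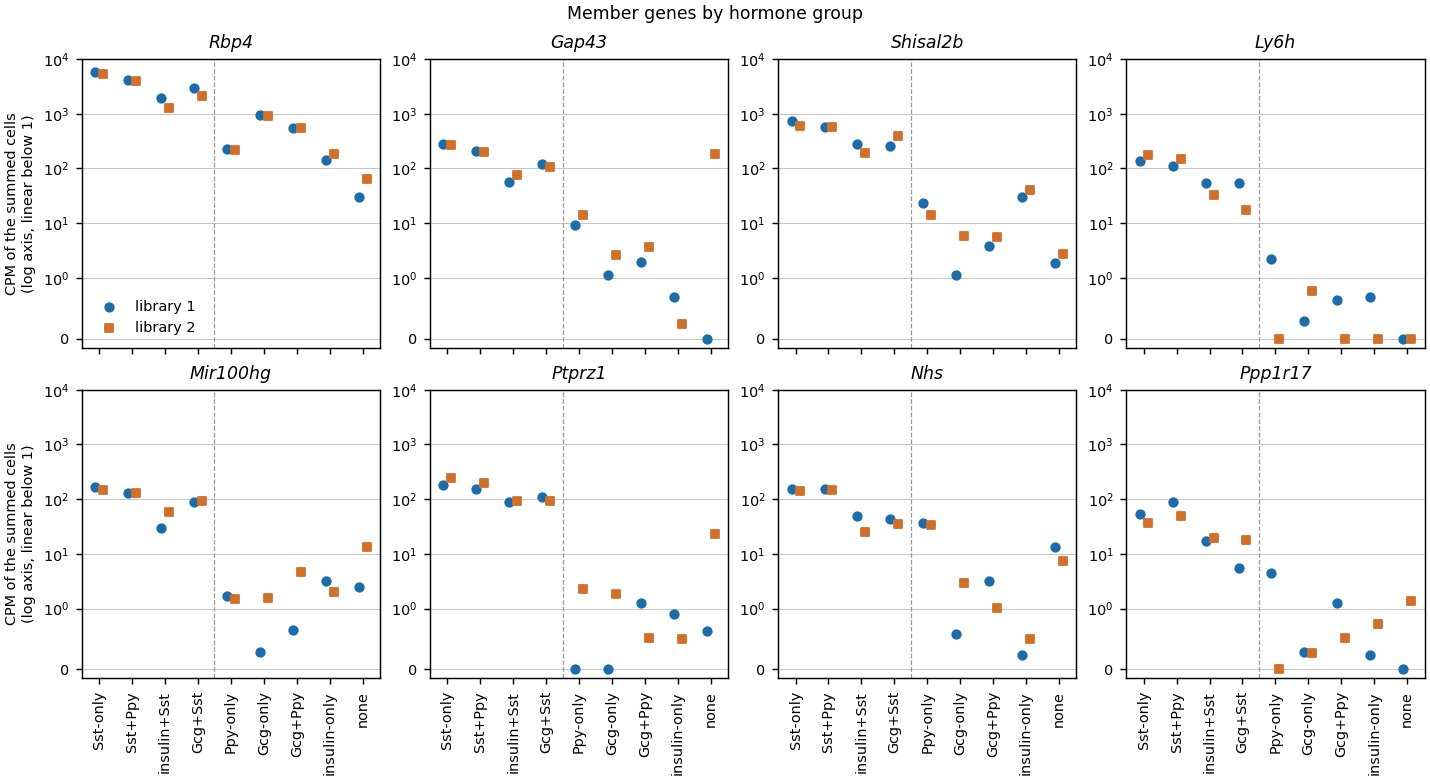
CPM of the 8 genes (log axis, linear below 1) in the summed cells of 9 hormone groups, with 1 point per library and a dashed line between groups with and without Sst. In both libraries each gene is higher in all 4 groups with Sst than in insulin-only or Gcg-only cells, and Gap43 in cells with none of the hormones is at 0 in library 1 and at 185 CPM in library 2.

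Rbp4 (ENSMUSG00000024990, chr19:38116629-38125281, minus strand of GRCm38) had a UMI in each of the 58 Sst-only cells and each of the 148 Sst+Ppy cells. Its level in Sst-only cells was 5747 and 5428 CPM, or 5588 ± 226 CPM (SD, n = 2). In Gcg-only cells it was 934 and 897 CPM. In insulin-only cells it was 142 and 184 CPM, in Ppy-only cells 223 and 222 CPM. The order from Sst-only through Sst+Ppy and Gcg-only was thus the same in both libraries, while Ppy-only and insulin-only cells lay close together. Pooled over libraries, Sst-only cells held 6.14 times the Gcg-only level (95% counting interval 5.92 to 6.38) and 34.7 times the insulin-only level (32.6 to 36.8). Sst in Gcg-only cells was at 0.260% and 0.225% of its Sst-only level. The grouping rule holds Sst under 1% of UMIs in these cells, so this share is in part set by the rule. Rbp4 in the same cells was at 16.3% and 16.5% of its Sst-only level, and 100% and 99.4% of Gcg-only cells had a UMI of it. The source of the Rbp4 UMIs in Gcg-only cells was not tested.

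The region before a start site of Rbp4 is shown because Rbp4 was the gene whose test between the Sst groups came nearest to passing, together with that of Sst, the gene that defines the cells. The sequences are from RefSeq on GRCm38.p6 and run 5′ to 3′ over the 250 bases up to the start. Capitals mark matches on either strand to TATAAA (the TATA box), TGACGTCA (the cAMP response element), GGGCGG (the GC box) or TAATTA (a homeobox core). Motifs were searched in windows of 300 bases that also take in 50 bases after the start.
Rbp4, chr19:38124812-38125061, minus strand: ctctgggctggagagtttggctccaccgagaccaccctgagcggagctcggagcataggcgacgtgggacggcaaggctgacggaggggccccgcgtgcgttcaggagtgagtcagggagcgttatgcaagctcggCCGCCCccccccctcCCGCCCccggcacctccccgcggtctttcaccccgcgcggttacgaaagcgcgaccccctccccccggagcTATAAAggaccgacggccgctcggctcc
Sst, chr16:23890845-23891094, minus strand: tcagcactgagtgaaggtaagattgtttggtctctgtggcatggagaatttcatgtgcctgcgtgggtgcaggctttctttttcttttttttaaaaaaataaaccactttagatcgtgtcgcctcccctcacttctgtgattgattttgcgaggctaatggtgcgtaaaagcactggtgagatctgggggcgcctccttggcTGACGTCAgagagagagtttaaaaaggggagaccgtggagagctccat

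The Rbp4 window held TATAAA 28 bases before the start and GGGCGG, while the Sst window held TGACGTCA 48 bases before the start. Of all 32851 windows, 13.6% held TATAAA, 35.7% held GGGCGG, 1.79% held TGACGTCA and 5.29% held TAATTA. Windows were on hand for 5 of the 8 genes (7 windows: 2 each for Rbp4 and Mir100hg, 1 each for Shisal2b, Ptprz1 and Nhs). TGACGTCA and TAATTA were in 0 of the 7, TATAAA in 1 and GGGCGG in 2, the other being that of Ptprz1. These are matches of letters and say nothing about which factor binds.

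Shisal2b (ENSMUSG00000042655, chr13:104845283-104863893, minus strand) likewise had a UMI in every Sst-only cell. Its level was 741 and 602 CPM in Sst-only cells and 570 and 576 CPM in Sst+Ppy cells. Among groups with a single other hormone, it was highest in insulin-only cells, at 29.8 and 39.8 CPM, where 31.9% (95% exact Clopper-Pearson interval 25.2% to 39.2%) and 34.2% (27.5% to 41.4%) of cells had a UMI. The few insulin+Ppy cells (12 and 8) were higher, at 70.2 and 51.3 CPM. In Gcg-only cells of similar median depth 1.65% and 4.02% of cells had a UMI. After thinning each cell to 4000 UMIs the shares were 9.34% and 15.3% in insulin-only cells and 0.549% and 0.575% in Gcg-only cells. Shisal2b in insulin-only cells was thus at 4.03% and 6.60% of its Sst-only level. Sst, which the grouping rule holds under 1% of UMIs there, was at 0.240% and 0.146% of its own. In Ppy-only cells the gene was at 23.4 and 14.3 CPM, but a single cell held 18 of the 42 UMIs in library 1 and a single cell 18 of the 38 in library 2.

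Nhs (ENSMUSG00000059493, chrX:161833296-162159730, minus strand) spans 326435 bases, and 3 annotated genes lie within it on the other strand. Its level was 151 and 139 CPM in Sst-only cells and 156 and 144 CPM in Sst+Ppy cells. It was the gene whose level in Ppy-only cells was nearest to that in Sst cells: 36.1 and 33.2 CPM, or 23.9% and 24% of the Sst-only level, with UMIs in 46.3% (32.6% to 60.4%) and 44.1% (32.1% to 56.7%) of Ppy-only cells. In Gcg-only cells 0.549% and 2.30% of cells had a UMI, and in insulin-only cells 0.549% and 1.05%. Ppy-only cells were deeper, with medians of 28784.5 and 30339.5 UMIs. After thinning to 4000 UMIs the Ppy-only shares were 9.26% and 8.82%, and those of Sst-only cells 34.3% and 26.1%. Per 1000 Sst UMIs, Nhs had 1.70 and 1.47 UMIs in Sst-only cells and 52.7 and 56.7 in Ppy-only cells. The grouping rule holds Sst under 1% of UMIs in Ppy-only cells, so this ratio is in part set by the rule. The source of the Nhs UMIs in these cells was not tested.

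Gap43 (ENSMUSG00000047261, chr16:42248442-42340651, minus strand) was at 276 and 268 CPM in Sst-only cells, or 272 ± 5.76 CPM (SD, n = 2), and at 213 and 197 CPM in Sst+Ppy cells. In Ppy-only cells it was at 9.45 and 14.3 CPM, with a UMI in 16.7% and 25% of cells and at most 5 UMIs in any of them. Insulin-only cells held 3 and 1 UMIs of Gap43 in all. Ptprz1 (ENSMUSG00000068748, chr6:22875502-23052916, plus strand) was at 185 and 241 CPM in Sst-only cells and 152 and 197 CPM in Sst+Ppy cells. In Ppy-only, Gcg-only and insulin-only cells it was at 0.000 to 2.27 CPM. Ly6h (ENSMUSG00000022577, chr15:75551268-75567255, minus strand) was at 135 and 178 CPM in Sst-only cells and 112 and 148 CPM in Sst+Ppy cells. Outside groups with Sst it was at 2.22 CPM or less in the groups with a single hormone. It was at 0 in Ppy-only cells of library 2, where 0 of 68 cells allow a share of cells with a UMI of up to 4.41%, and in cells without any of the hormones. That limit is on cells with a UMI and not on cells expressing Ly6h. In Ppy-only, Gcg-only and insulin-only cells Ly6h thus reached at most 1.65% and Ptprz1 at most 0.940% of the Sst-only level. Sst, which the grouping rule holds under 1% of UMIs in these cells, reached at most 0.772%.

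Mir100hg (ENSMUSG00000074415, chr9:41327077-41716994, plus strand, named 3110039I08Rik in GENCODE M21) was at 167 and 145 CPM in Sst-only cells and 129 and 127 CPM in Sst+Ppy cells. It was at 0.288 to 3.21 CPM in Ppy-only, Gcg-only and insulin-only cells. The locus spans 389918 bases, and 8 annotated genes on its own strand and 6 on the other overlap it. Hairpins of Mir100 (chr9:41531425-41531504), Mirlet7a-2 (chr9:41536716-41536811) and Mir125b-1 (chr9:41581926-41582002) lie in introns of the annotated gene. The count is of polyadenylated RNA assigned to exons, so it measures the host transcript and not the mature microRNAs. Those of Mir100 and Mir125b-1 are shown to identify what the locus carries, from RefSeq with the seed (bases 2 to 8) in capitals.
miR-100-5p, chr9:41531437-41531458: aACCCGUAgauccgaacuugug
miR-125b-5p, chr9:41581940-41581961: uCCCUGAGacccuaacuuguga

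The seeds differ, so neither shares a seed family with the other. Levels of either microRNA were not measured here.

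Ppp1r17 (ENSMUSG00000002930, chr6:56017497-56032689, plus strand) differed from the other genes in how few cells held it. In Sst-only cells 7 of 35 (20%, 8.44% to 36.9%) and 4 of 23 (17.4%, 4.95% to 38.8%) had a UMI, and in Sst+Ppy cells 22 of 77 (28.6%, 18.8% to 40.0%) and 17 of 71 (23.9%, 14.6% to 35.5%). Those intervals cover counting error over cells only, and the shares of Sst-only and Sst+Ppy cells were not tested against each other. Single Sst+Ppy cells held up to 20 and 12 UMIs of Ppp1r17. The 5 Sst+Ppy cells with most UMIs held 55.8% of the Ppp1r17 UMIs in library 1 and 60% in library 2. For Rbp4 the same figures were 16.0% and 16.7%. In Ppy-only cells of library 1, 2 cells held its 8 UMIs. In library 2 it was at 0 in 68 cells. Ppp1r17 UMIs therefore sat in a minority of Sst cells.

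**Figure D2:**
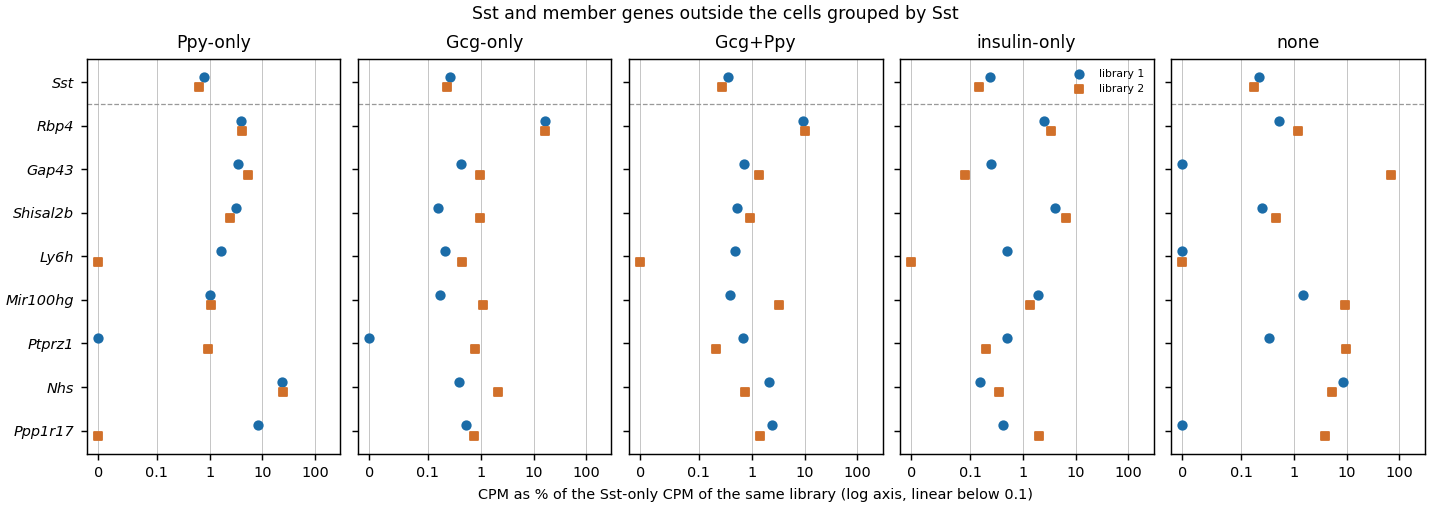
CPM of Sst and of each gene in 5 groups without Sst, as a percentage of the Sst-only CPM of the same library (log axis, linear below 0.1), with 1 point per library. Sst lies between 0.146% and 0.772% throughout, while Rbp4 in Gcg-only cells (16.3% and 16.5%) and Nhs in Ppy-only cells (23.9% and 24%) lie well to the right of it. The grouping rule holds Sst under 1% of UMIs in these groups.

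The comparison of Sst-only with Sst+Ppy cells asked whether these genes differ among delta cells by the presence of Ppy transcripts. In both libraries 6 of the genes had a higher CPM in Sst-only cells, and the other 2, Nhs and Ppp1r17, a lower one. The groups did not overlap for 4 genes (Rbp4, Gap43, Shisal2b and Mir100hg, each with Sst-only above), against 20.9% of all 13806 genes tested that were above without overlap. UMIs were summed over the cells of each library and group and tested with edgeR's quasi-likelihood test across all genes. With Benjamini-Hochberg adjustment 0 of the 8 genes were called at 0.05, against 4 of the 13806 genes tested (0.029%). By direction, 0 of the 8 were called higher in Sst-only cells against 0.00724% of all genes, and 0 higher in Sst+Ppy cells against 0.0217%. At an unadjusted p under 0.05 there was 1 of the 8 genes, and there were 1051 of the 13806. DESeq2 called 0 of the 8 genes and 5 genes in all.

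Rbp4 was at 5747 and 5428 CPM in Sst-only cells and at 4233 and 4051 CPM in Sst+Ppy cells. The edgeR estimate was 0.32 on the log2 scale (SE 0.10, 95% interval 0.12 to 0.53), with an adjusted p of 0.451. It did not pass the threshold and ranked 91 among all genes. Sst differed in the same direction, at 88845 and 94091 CPM in Sst-only cells and 77136 and 70197 CPM in Sst+Ppy cells. Per 1000 Sst UMIs, Rbp4 was higher in Sst-only cells in library 1 (64.7 against 54.9) and level in library 2 (57.7 in both). Within library 1 alone the estimate was 0.35 and within library 2 alone 0.30, both without a test. Gap43 had a log2 fold change of 0.30 (SE 0.16, interval -0.029 to 0.64, edgeR adjusted p = 0.687). For Mir100hg the estimate was 0.19 (-0.24 to 0.61), and it was 0.28 within library 1 and 0.062 within library 2. The estimate was 0.15 for Ptprz1 (-0.32 to 0.62), 0.13 for Shisal2b (-0.18 to 0.45) and 0.13 for Ly6h (-0.39 to 0.65). Shisal2b was at 0.28 within library 1 and -0.054 within library 2. Its CPM in library 2 was higher in Sst-only cells (602 against 576), and edgeR scales the sums otherwise than CPM does. These intervals contain both no difference and changes of up to 0.65 on the log2 scale. Nhs was estimated at -0.15 (-0.57 to 0.26) and Ppp1r17 at -0.70 (SE 0.42, interval -1.56 to 0.15, edgeR adjusted p = 0.734). For Ppp1r17 the libraries had 53.7 and 36.1 CPM in Sst-only cells and 89.9 and 49.9 CPM in Sst+Ppy cells, so the groups overlapped.

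The median log2 fold change of the 8 genes was 0.14, and that of all genes tested was -0.026, with 6538 of the 13806 positive. In simulated counts of this design, edgeR called 32 of 100 genes changed 2-fold and 73 of 100 changed 4-fold, so a 2-fold change could be missed. The genes called included Ccn1 and Ttr, higher in Sst+Ppy cells, and Dlk1, higher in Sst-only cells. Ttr, which encodes transthyretin, the partner of retinol-binding protein in blood, was at 262 and 223 CPM in Sst-only cells and at 359 and 376 CPM in Sst+Ppy cells. By edgeR it fell by 0.69 on the log2 scale in Sst-only cells (SE 0.13), with an adjusted p of 0.0474, and the estimate for Rbp4 had the opposite sign.

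**Figure D3:**
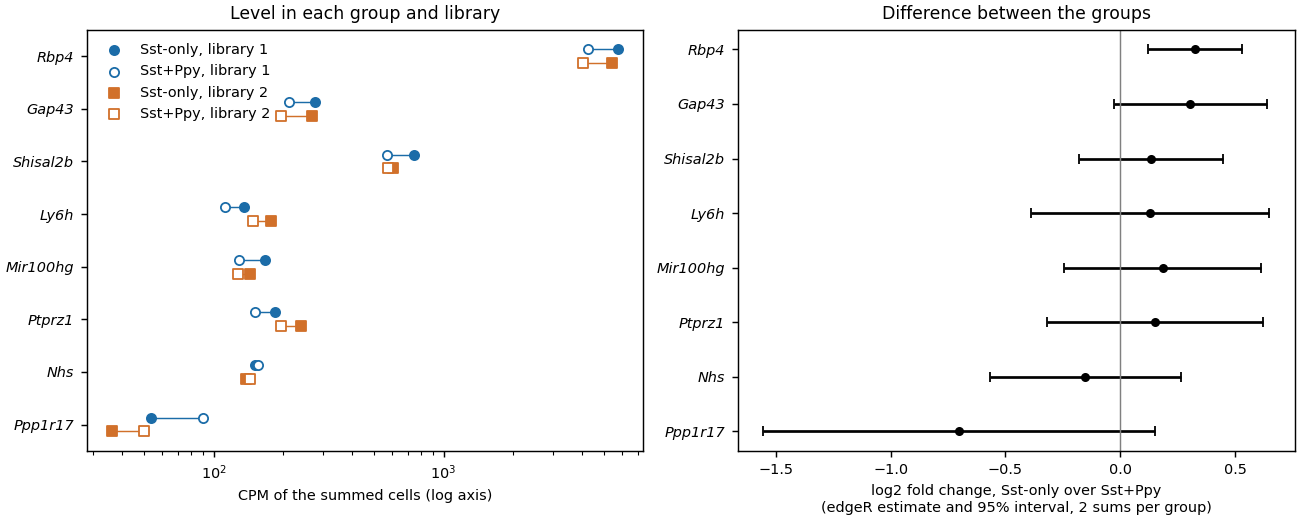
Left, CPM (log axis) of each gene in Sst-only (filled) and Sst+Ppy cells (open) of each library. Right, edgeR log2 fold change of Sst-only over Sst+Ppy with its 95% interval. The interval of Rbp4 lies above 0 before adjustment over all genes, and those of the other 7 genes include 0.

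The threshold of 1% Ppy cuts a continuous range. In Sst cells without insulin and Gcg, 10 cells of each library had a Ppy share from 0.5% to 1%, and 29 and 15 had a share from 1% to 2%. The highest share below the threshold was 0.861% and 0.811%, and the lowest above it 1.04% and 1.02%. Rbp4 was at 6973 and 6629 CPM in cells with 0.5% to 1% Ppy and at 4648 and 6398 CPM in cells with 1% to 2%, so the step was large in library 1 and small in library 2. Shisal2b was at 632 and 598 CPM just below and at 559 and 693 CPM just above, lower in library 1 and higher in library 2.

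From a Ppy share of 5% upward, all 8 genes had a lower CPM in both libraries than in the bin from 2% to 5%. In the 13 cells of each library with at least 5% Ppy, Rbp4 was at 2645 and 1807 CPM, against 4697 and 4369 CPM in the 35 and 43 cells with 2% to 5%. Gap43 was at 47.5 and 55.1 CPM against 279 and 253 CPM in the same bins. Ptprz1 was at 47.5 and 63.8 CPM against 156 and 219 CPM. In both libraries these 3 genes were lower in the top bin than in every other bin. The same held for Shisal2b (354 and 360 CPM) and Mir100hg (32.9 and 69.6 CPM), but not for Ly6h, Nhs and Ppp1r17. Ppy, with medians of 5.95% and 24.7% of UMIs in the top bin, is part of the total to which CPM are scaled. Sst was lower there too, at 47062 and 34140 CPM against 76855 and 82565 CPM from 2% to 5%. Both top bins hold under 20 cells.

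Ppp1r17 was highest in the bin from 2% to 5% Ppy in both libraries, at 167 and 82.6 CPM with UMIs in 40.0% and 34.9% of cells. In the bin from 1% to 2%, it was at 29.6 and 17.3 CPM with UMIs in 10.3% and 6.67% of cells. Differences between bins were not tested.

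**Figure D4:**
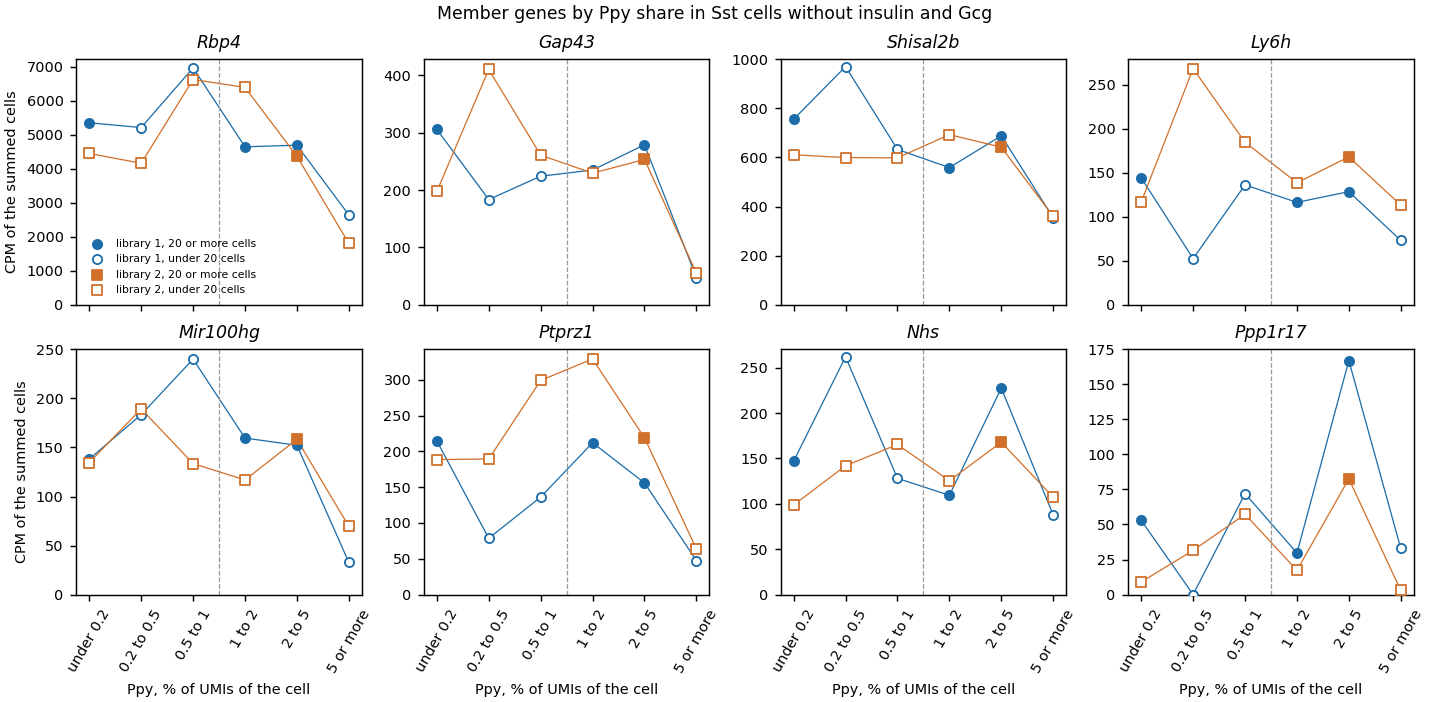
CPM of each gene in Sst cells without insulin and Gcg, by the cell's Ppy share in 6 bins, with 1 line per library, open points for bins under 20 cells and a dashed line at the 1% threshold. In both libraries Rbp4, Gap43, Shisal2b, Mir100hg and Ptprz1 are lowest in the bin of 5% or more. Ppp1r17 peaks at 167 and 82.6 CPM in the bin from 2% to 5%.

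Among Sst+Ppy cells, 7 and 13 had at least as much Ppy as Sst, with median Ppy shares of 12.9% and 24.7%. The other 70 and 58 cells had more Sst. The cells led by Ppy overlap those with at least 5% Ppy above, so both splits rest in part on the same cells. Cells led by Ppy were also deeper, with medians of 20696 and 20318 UMIs against 13421 and 15012.5 in cells led by Sst. All 8 genes had a lower CPM in the cells led by Ppy in both libraries, and the same was true of the CPM with the hormone genes left out of the total. With the hormones left out, Rbp4 was at 2406 and 2540 CPM in cells led by Ppy and at 5330 and 5512 CPM in cells led by Sst. Sst was lower in the cells led by Ppy as well, with median shares of 3.72% and 3.35% of UMIs against 8.60% and 8.43%. Per 1000 Sst UMIs, Rbp4 was at 59.3 and 58.3 in cells led by Ppy and at 54.6 and 57.6 in cells led by Sst. On that scale Rbp4, Gap43, Shisal2b, Ly6h and Nhs were higher in the cells led by Ppy in both libraries. Ptprz1 and Ppp1r17 were lower in both, and Mir100hg differed in sign. The split by Sst against Ppy itself lowers Sst in the cells led by Ppy, so this scale depends on the split. Counts were low: in these cells of library 1, Gap43 had 18 UMIs with 12 in 1 cell, and Ly6h 15 with 7 in 1 cell. On the scale without hormone genes, Ptprz1 in cells led by Ppy was at 33.2% and 20.5% of its level in the other cells, and Ly6h at 80% and 95%. When only cells led by Sst were kept for the test, the log2 fold change of Rbp4 was 0.18 and 0 of the 8 genes were called.

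Some cells held Sst together with insulin (14 and 8 cells) or Gcg (8 and 6 cells). In insulin+Sst cells, Sst was at 30.8% and 24.3% of its Sst-only level and Rbp4 at 33.9% and 23.7%. In Gcg+Sst cells, Sst was at 44.3% and 40.2% and Rbp4 at 51.4% and 38.1%. Per 1000 Sst UMIs, Rbp4 had 64.7 and 57.7 UMIs in Sst-only cells, 54.9 and 57.7 in Sst+Ppy cells, 71.1 and 56.4 in insulin+Sst cells and 75.0 and 54.7 in Gcg+Sst cells. Over the 4 groups the ratio of Rbp4 to Sst thus stayed between 54.7 and 75.0. Not every gene followed Sst in this way. In Gcg+Sst cells Nhs was at 29.1% and 25.4% of its Sst-only level, Ly6h at 40.6% and 9.90% and Mir100hg at 52.6% and 64.9%. The mixed cells were also deeper, with medians of 21540.5 and 47225.5 UMIs for insulin+Sst and 19042.5 and 22470 for Gcg+Sst. Sst-only cells had medians of 13123 and 13692 UMIs. The doublet caller marked 2 cells of the Sst-only and Sst+Ppy groups, and whether the mixed cells are single cells was not tested.

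Within 1 cell several of the genes were usually seen together. The median Sst-only cell had a UMI of 6 of the 8 genes in both libraries, as did the median Sst+Ppy cell. All 8 were present in 2 and 2 Sst-only cells and in 7 and 6 Sst+Ppy cells. The median Ppy-only cell had 2 of the 8, the median Gcg-only and insulin-only cell 1, and the median cell with none of the hormones 0. Leaving Rbp4 aside, every Sst-only and Sst+Ppy cell had a UMI of at least 1 of the other 7 genes, while 173 of 182 and 155 of 174 Gcg-only cells had 0 of the 7. After thinning to 4000 UMIs, 77.1% and 56.5% of Sst-only cells and 67.5% and 64.8% of Sst+Ppy cells kept at least 3 of the 7. In Ppy-only, Gcg-only and insulin-only cells the thinned share was 0.000%.

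**Figure D5:**
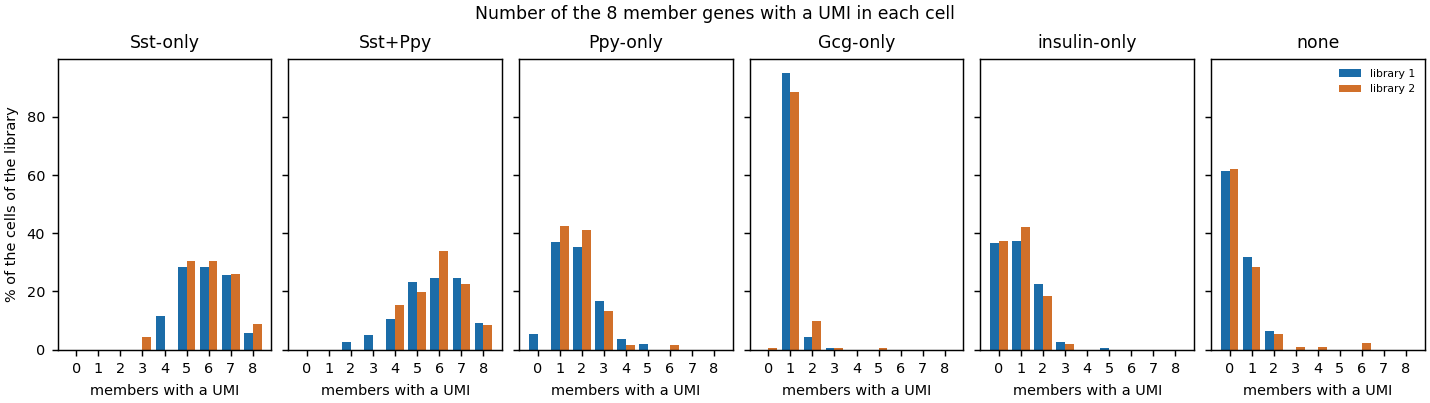
Percentage of the cells of each library by the number of the 8 genes with a UMI, for 6 hormone groups. Sst-only and Sst+Ppy cells centre on 6 genes, Ppy-only cells on 2 or fewer, and Gcg-only cells on 1.

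Of 1212 cells with Sst under 1% of UMIs, 11 had at least 3 of those 7 genes. Of these, 7 were Ppy-only, Gcg-only or Gcg+Ppy cells, and 6 of the 11 had a Sst share between 0.5% and 1%. Among the 11 were 2 cells of library 2 with none of the hormones, which had 96154 and 177513 UMIs. They held 135 and 263 UMIs of Gap43, 26 and 23 of Ptprz1 and 8 and 16 of Mir100hg, with 0 of Ly6h and 5 and 10 of Sst. Among listed Schwann cell markers they held 4 and 2 UMIs of Sox10, 22 and 13 of S100b, 5 and 4 of Foxd3 and 6 and 7 of Cdh19. In the Sst-only and Sst+Ppy cells of both libraries Sox10, S100b, Foxd3 and Cdh19 were at 0. Without these 2 cells, Gap43 in cells of library 2 with none of the hormones fell from 185 to 1.06 CPM and Ptprz1 from 23.6 to 1.06 CPM. The 2 cells were singled out after their Gap43 counts were seen.

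The partners and relatives of the genes were counted in the same test, in lists drawn up for this purpose. Of 22 genes of retinoid binding and metabolism, 9 were tested and 1, Ttr, was called. Stra6l, Lrat, Aldh1a1, Aldh1a2 and Rarb had 0 UMIs in both groups of both libraries. Of 12 PTPRZ1 ligands and contactins, 6 were tested and 0 called. Ptn, which encodes the ligand pleiotrophin, was at 7.95 and 9.04 CPM in Sst-only cells and at 35.8 and 39.9 CPM in Sst+Ppy cells, with a log2 fold change of -2.27 and an edgeR adjusted p of 0.358. Of 12 growth cone phosphoproteins, 8 were tested and 0 called, with a median log2 fold change of 0.073. Of 18 genes of the Ly6 family and nicotinic receptor subunits, 5 were tested and 0 called. The subunits Chrna3, Chrna4, Chrna5, Chrna7 and Chrnb4 had 0 UMIs in both groups, whereas Chrnb2 was at 19.9 and 42.2 CPM in Sst-only cells.

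In the remaining lists no gene was called either: 0 of 5 tested Shisa family genes, 0 of 11 of the NHS and WAVE complex, 0 of 12 of PP2A, PP1 and cGMP kinase, and 0 of 1 of the let-7 and miR-125 host genes and Lin28. Lin28a and Lin28b had 0 UMIs in both groups. Among markers of islet cells, 0 of 5 delta, 0 of 4 gamma, 1 of 7 alpha (Ttr again) and 0 of 6 beta markers tested were called. The median log2 fold change of the alpha markers was -0.69, with 0 of 7 positive. Of markers of other cells, 0 were called among 2 Schwann, 6 endothelial, 2 stellate and fibroblast, 4 leukocyte, 1 acinar and 4 ductal markers tested. The median of the endothelial list was 0.89 with 6 of 6 positive, in the same direction as 6 of the 8 genes. Their part in those estimates was not tested.

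The genes most like each of the 8 were found by the Pearson r of log2(CPM + 10) over 14 sums (7 hormone groups in 2 libraries) among 6869 genes with at least 20 CPM in Sst-only cells of both libraries. The sums share libraries and the groups differ in size, so r is a description. The 8 genes were chosen as high in delta cells and the candidates by their level in Sst-only cells. High values of r are therefore in part set by the choice. Sst itself had an r from 0.846 with Gap43 to 0.989 with Ly6h. For Ly6h they were Dscam (0.993), Lmo3 (0.993) and Crhr2 (0.990), and for Ptprz1 F5 (0.993), Clmp (0.992) and Kcnd2 (0.991). For Mir100hg they included Cacna2d2 (0.992) and F5 (0.989). Several of these names recurred, with F5 near both Mir100hg and Ptprz1 and Lmo3 near both Ly6h and Ppp1r17. Ppp1r17 was nearest to Cela1 (0.978), then Lmo3 (0.976) and Hgf (0.974), and Nhs to Erich5 (0.975), Hgf (0.959) and Igsf5 (0.955). Shisal2b was nearest to Cd164l2 (0.978), Cpne4 (0.977) and Wipi1 (0.974). Gap43 was nearest to Ncam2 (0.995), Plcb4 (0.968) and Spock3 (0.965). The sums include the 2 cells of library 2 described above, which held UMIs of Gap43, Ptprz1 and Mir100hg. For Rbp4 they included Sgk2 (0.982) and Wdr34 (0.975). Among the 8 genes themselves r ranged from 0.626 between Rbp4 and Gap43 to 0.991 between Mir100hg and Ptprz1.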

How the data were processed

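UMI counts per gene and cell of 2 islet libraries were used as deposited. Per the labels and methods, the authors made these counts with Cytonaut on GRCm38, taking cell barcodes above a UMI-tools knee, keeping exonic alignments and removing duplicates. The aligner was not given in the sources used here, and introns do not add to the counts. All barcodes had at least 200 genes and at most 20% mitochondrial UMIs.

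Insulin is the sum of Ins1 and Ins2, and a hormone was present from 1% of UMIs. CPM scale a gene's UMIs to all UMIs of the summed cells. Counts were summed per library for insulin-only, Gcg-only, Sst-only, Ppy-only and Sst+Ppy cells and tested with edgeR 4.0.16 (TMM, filterByExpr, glmQLFit, glmQLFTest, Benjamini-Hochberg, threshold 0.05) in R 4.3.3, leaving 5 residual degrees of freedom. The hormone genes stayed in library sizes and were not tested. Cells were not used as replicates. The 10 sums come from 2 libraries of 1 preparation, so p-values cover technical spread. Sums of the same library share that library, and over 11912 genes their deviations had r from -0.042 to 0.086. With library as a replicate block, 10 genes and 0 of the 8 members were called. The fit was tested on simulated data. Scrublet (scanpy 1.11.5) marked 8 and 8 doublets, which were kept. Intervals on shares, limits for a count of 0 (3 counts) and intervals on pooled ratios cover counting error only. Coordinates are from GENCODE M21, in which 99.8% of 33038 identifiers were found. The counting of overlapping genes by strand is not stated in the sources used here.

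The members and gene lists were chosen with earlier results of these data known. Named genes are the 8 members, up to 4 called genes per list and the 3 nearest genes by r. Ccn1, Dlk1, Ptn, Chrnb2, Iapp, Pyy and the genes at 0 were named after their values were seen. Some genes that these rules select are not reported here.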

Additional observations from a re-analysis of the deposited data

How the results depend on the processing

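Of the 8 genes, 0 were called in the Sst-only against Sst+Ppy test and in 11 of 12 alternatives, and 1 was called with a hormone threshold of 5% of UMIs. That was Gap43, with a log2 fold change of 1.89 and an edgeR adjusted p of 0.0287. That threshold left only 8 and 5 cells in the Sst+Ppy group and shifted the median of all genes to 0.37, so its values are relative to that. It also turned Nhs to 0.92 and Ppp1r17 to 0.67. Other sign changes were Ly6h at -0.086 with a threshold of 2%, and Ptprz1 at -0.12 after thinning to 4000 UMIs and -0.066 with Sst+Ppy cells led by Sst. None of these was called, and the cause was not tested. The number of genes called was 4. It became 1 with a threshold of 0.5%, 23 with 5%, 10 with the replicate block, 59 without a filter on low counts, and 2 each with equal cell numbers, with thinning and with cells led by Sst. DESeq2 called 5, of which 4 were higher in Sst+Ppy cells. Leaving out either library gave values without a test, since no residual degrees of freedom remain. Without library 1, Shisal2b was at -0.054 and without library 2 at 0.28. Mir100hg was at 0.062 and 0.28. Over all alternatives Rbp4 ranged from 0.070 to 0.40 and kept its direction. The replicate block changed no call among the 8 genes. The share of Sst-only cells with a UMI depends on depth, and thinning lowered its mean from 82.8% to 57.5% for Gap43 and from 18.7% to 9.32% for Ppp1r17. With 35 and 23 Sst-only cells, Ppp1r17 rests on 27 and 12 UMIs.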
